A study of Mus musculus with 4 samples.

Results

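The urea cycle genes and a small group of periportal amino acid breakdown genes were read from bulk liver tumour RNA of 4 mice. The 10 genes were named by their roles in these pathways, by a rule that uses no measured value, though the set was proposed with earlier results of these data known. The urea cycle gave 7 of them (Nags, Cps1, Otc, Slc25a15, Ass1, Asl and Arg1) and amino acid breakdown gave 3 (Gls2, Hal and Sds). All 10 matched a row by Ensembl identifier, of 55487 genes in the table, and all 10 passed the filter on low counts.

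Messenger RNA was sequenced from hepatocellular carcinoma tissue of mice in which Tfrc, the transferrin receptor gene, had been deleted conditionally in the liver (2 libraries labelled knockout), and of wild type mice (2 libraries). Alb-cre, a Cre recombinase driven by the albumin promoter of hepatocytes, and H11-myc, a Myc transgene at the H11 locus that gives spontaneous tumours, name the background of the series. The labels give neither the exons removed nor the mice's age, and do not state whether each wild type mouse carried Cre. The comparison asks how liver tumours differ with and without Tfrc, and the replicates are separate mice.

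The urea cycle turns ammonia from amino acid breakdown into urea and runs mainly in hepatocytes near the portal vein. Its early steps lie in mitochondria, where NAGS makes the activator of CPS1, CPS1 makes carbamoyl phosphate and OTC joins it to ornithine to give citrulline. SLC25A15 carries ornithine in and citrulline out, and ASS1, ASL and ARG1 complete the cycle in the cytosol. GLS2, HAL and SDS release ammonia from glutamine, histidine and serine. Hepatocytes around the central vein instead use glutamine synthetase, the product of Glul, to trap ammonia that escapes the cycle.

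RefSeq promoter windows (GRCm38.p6) were held for 5 of the 10 genes: Hal, Nags, Otc, Ass1 and Slc25a15. Only these 5 could be searched. Of them, Hal, Ass1 and Slc25a15 stood higher in both libraries labelled knockout and Nags and Otc did not. Arg1, Gls2 and Sds also stood higher and had no window, and whether motifs go with direction was not tested. The windows are the 250 bases upstream of the start site, on the strand of the gene, with matches to 9 short motifs in capitals. All motifs were sought on both strands. They were the E-box CACGTG, which MYC and MAX bind, the cAMP response element TGACGTCA and the shorter TGACG that lies inside it. The box spelled CCAAT and the TATA box, sought as TATAAA, were added as general promoter motifs. For C/EBP factors the letters were TTGCNNAA, for nuclear receptors they were AGGTCA, for HNF1 they were GTTAAT and for the glucocorticoid receptor they were TGTTCT. The Hal window is chr10:93488518-93488767 on the plus strand, and the Nags window is chr11:102145263-102145512 on the plus strand.
Hal: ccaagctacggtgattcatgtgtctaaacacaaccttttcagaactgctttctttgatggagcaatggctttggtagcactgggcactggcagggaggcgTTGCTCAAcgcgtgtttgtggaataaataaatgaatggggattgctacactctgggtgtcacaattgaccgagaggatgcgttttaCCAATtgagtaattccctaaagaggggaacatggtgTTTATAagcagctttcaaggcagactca
Nags: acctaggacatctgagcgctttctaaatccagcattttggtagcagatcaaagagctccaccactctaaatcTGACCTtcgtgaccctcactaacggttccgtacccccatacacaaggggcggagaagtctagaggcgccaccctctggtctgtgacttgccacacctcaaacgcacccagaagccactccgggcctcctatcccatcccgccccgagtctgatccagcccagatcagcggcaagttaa

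The Hal window held a TATA box 28 bases before the start site, a CCAAT box at 64 bases and a C/EBP match at 150 bases. Such matches were present in 12.4%, 33.8% and 9.56% of all 32851 windows. The Nags window held 1 nuclear receptor match, found in 14% of all windows, and the Otc window held none of the 9 motifs. Ass1 and 1 of the 2 start sites of Slc25a15 had an E-box, 36 and 77 bases before the start site, and 6.02% of all windows had one. The 30 bases around each E-box lie at chr2:31470222-31470251 (plus strand, inside an exon of Ass1 in GENCODE M21) and at chr8:22398337-22398366 (minus strand, inside an intron of Slc25a15). A match describes these letters and is no evidence of binding.
Ass1: cgcgcccgtcccCACGTGtcccaggttcct
Slc25a15: cgccctgccgcaCACGTGccgcggctccgg

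The libraries held 15918349 and 16421439 counts in knockout replicates 1 and 2, and 16414883 and 17052943 in wild type replicates 1 and 2. Tfrc itself had 5407 and 3244 counts in the knockout and 8441 and 3603 in the wild type, and the groups overlapped (log2 fold change -0.37, SE 0.45, edgeR adjusted p = 0.833). Tfrc level thus gave no check of the genotype labels, and directions below refer to the libraries labelled knockout. The deleted part of the gene is not named in the labels. On the first principal component of all genes the scores were -37 and -38.5 in the knockout and -11.2 and 86.6 in the wild type, so wild type replicate 2 stood apart. The 10 hepatocyte markers found, Alb among them, had a mean of 10.80 and 10.86 log2 CPM in the knockout and 10.11 and 11.14 log2 CPM in the wild type. The mean was lowest in wild type replicate 1. Hepatocyte RNA was thus present in all 4 libraries, and these markers do not tell tumour from other liver tissue. In bulk tissue, fewer cells of a type and less RNA per cell cannot be told apart.

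The genes of nitrogen disposal stood mostly higher in the libraries labelled knockout, and none passed the threshold. Both knockout libraries lay above both wild type libraries for 6 of the 10 genes (Ass1, Arg1, Slc25a15, Gls2, Hal and Sds), against 21.9% of the 16310 tested genes. Both lay below for 0 of the 10, against 20.1% of tested genes. By edgeR's quasi-likelihood test with adjustment over all genes, 0 of the 10 were called, against 0% of all tested genes (0 of 16310, smallest adjusted p = 0.0595). At an unadjusted p under 0.05, 3 of the 10 qualified (Slc25a15, Hal and Sds), against 8.3% of all genes, and DESeq2 called 0 of the 10, against 0.907% of all genes. The median log2 fold change was 0.51 over the 10 genes and 0.01 over all tested genes.

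**Figure D1:**
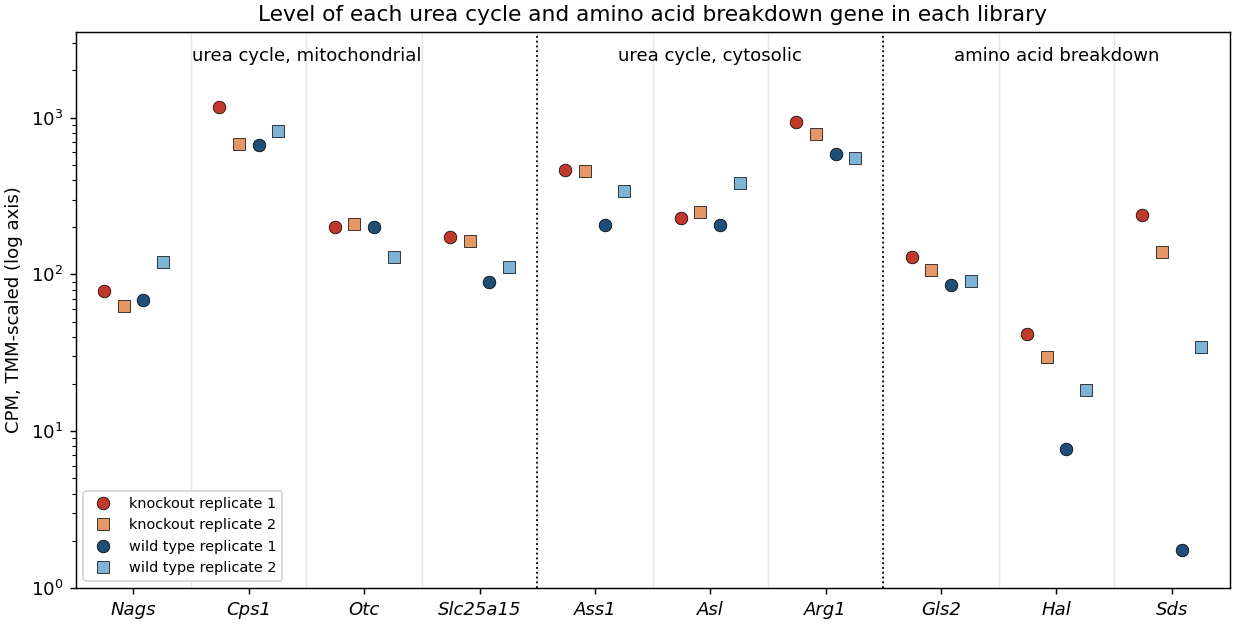
Level of each gene in each library, in CPM on a log axis, with knockout libraries left of wild type libraries and dotted lines between mitochondrial urea cycle, cytosolic urea cycle and amino acid breakdown genes. Sds spans the widest range, with 239 CPM in knockout replicate 1 and 1.74 CPM in wild type replicate 1, while Otc, Asl and Nags overlap between the groups.

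Knockout replicate 1 had the highest level of 7 of the 10 genes and wild type replicate 1 the lowest of 7. The like shares over all tested genes were not computed, so these counts are not shown to be particular to the 10 genes. The hepatocyte marker mean was also lowest in wild type replicate 1. The summed level of the 7 urea cycle genes was 3241 and 2607 CPM in the knockout and 2023 and 2456 CPM in the wild type. The summed level of the 3 breakdown genes was 409 and 274 CPM in the knockout and 94.4 and 143 CPM in the wild type. Together the 10 genes took 0.372% and 0.278% of all counts in the knockout and 0.237% and 0.235% in the wild type.

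The mitochondrial entry into the cycle gave no shared direction. Nags (ENSMUSG00000048217, chromosome 11, 102145513 to 102149477, mm10) had 78.4 and 62.7 CPM in the knockout and 69 and 120 CPM in the wild type. The groups overlapped, and wild type replicate 2 was the highest library (log2 fold change -0.42, 95% interval -1.27 to 0.43, edgeR adjusted p = 0.755). Cps1, which had the most counts of the 7 in 3 of the 4 libraries (ENSMUSG00000025991, chromosome 1, 67123026 to 67231259), had 1161 and 676 CPM in the knockout and 666 and 821 CPM in the wild type. Only knockout replicate 1 stood above the other libraries. The fold change was 0.30 on the log2 scale (interval -0.74 to 1.35, edgeR adjusted p = 0.859) and -0.17 without knockout replicate 1. Otc (ENSMUSG00000031173, chromosome X, 10252305 to 10321024) had 3243 and 3311 counts in the knockout and 3680 and 1978 counts in the wild type. Only wild type replicate 2 stood lower, at 129 CPM (log2 fold change 0.31, interval -0.50 to 1.13).

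The ornithine carrier separated the groups. Slc25a15 (ENSMUSG00000031482, chromosome 8, 22375551 to 22398597) had 173 and 164 CPM in the knockout and 89.6 and 111 CPM in the wild type. Both knockout libraries lay above both wild type libraries, which differed from each other by 1.24-fold. Its log2 fold change of 0.75 had an SE of 0.30 and an interval of 0.04 to 1.46 (edgeR adjusted p = 0.591), and it stayed between 0.57 and 0.91 when each library was left out in turn. Its sister carrier gene Slc25a2 had 1 and 5 counts in the knockout and 1 and 3 in the wild type, too few to test.

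In the cytosol, Ass1 and Arg1 stood higher and Asl did not. Ass1, the argininosuccinate synthase gene (ENSMUSG00000076441, chromosome 2, 31470207 to 31520672), had 465 and 459 CPM in the knockout and 205 and 340 CPM in the wild type. The knockout libraries differed from each other by 1.01-fold and the wild type libraries by 1.66-fold, nearly as much as the group means, which differed by 1.69-fold. The log2 fold change was 0.76 (SE 0.38, edgeR adjusted p = 0.634), and leaving out wild type replicate 1 gave 0.40, leaving out wild type replicate 2 gave 1.17.

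Asl, the lyase that follows ASS1 (ENSMUSG00000025533, chromosome 5, 130011258 to 130029247), had 229 and 251 CPM in the knockout and 206 and 381 CPM in the wild type. The knockout libraries lay between the wild type libraries (log2 fold change -0.29, interval -1.22 to 0.64, edgeR adjusted p = 0.849). Leaving out wild type replicate 2 turned the sign, to 0.22. Arg1, the arginase that releases urea (ENSMUSG00000019987, chromosome 10, 24915221 to 24927484), had 935 and 786 CPM in the knockout and 587 and 555 CPM in the wild type. All libraries of 1 group lay on 1 side. The means were 861 ± 105 CPM in the knockout and 571 ± 22.7 CPM in the wild type (SD, n = 2 each), with a log2 fold change of 0.59 (SE 0.38, edgeR adjusted p = 0.678). The extrahepatic arginase gene Arg2 was at 1.36 and 0.189 CPM in the knockout and 0.817 and 1.49 CPM in the wild type, so nearly all arginase reads in these tumours were of Arg1.

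**Figure D2:**
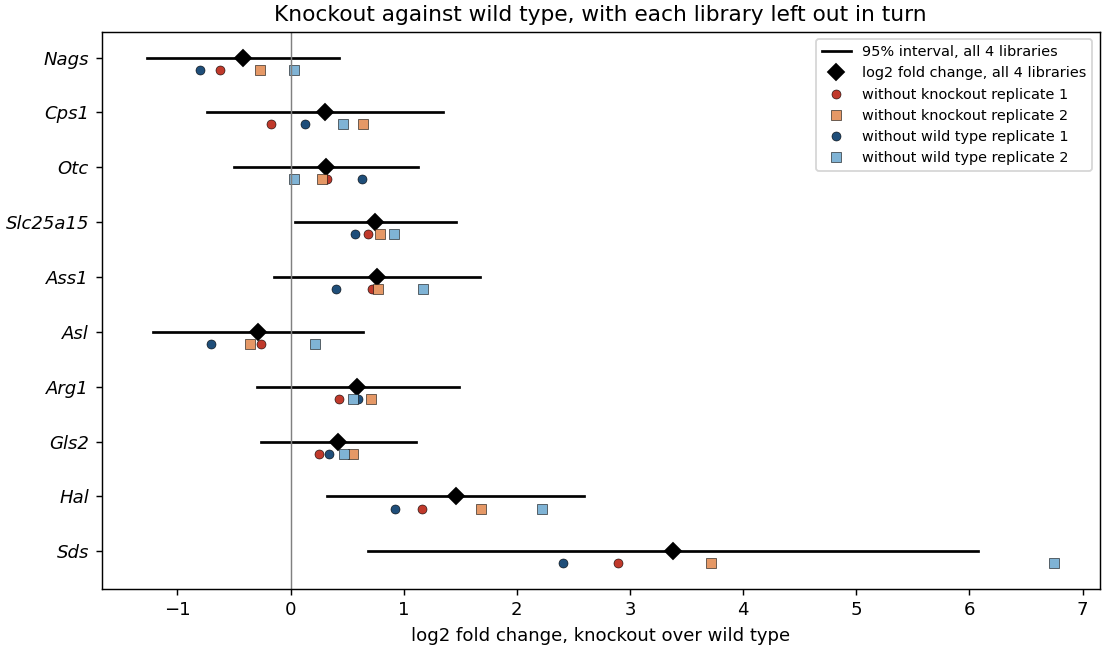
Log2 fold change of each gene, knockout over wild type, with the 95% interval of the edgeR fit as a line and the values with 1 library left out as coloured points below it. Sds is at 3.38 with all libraries and at 2.41 or 6.75 when wild type replicate 1 or 2 is left out, and Cps1, Asl and Nags cross 0 when a library is left out.

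Ratios between neighbouring steps were taken within each library from counts per kilobase of exon, so they do not depend on the scaling of the libraries. The ratio of Asl to Ass1 was 0.246 and 0.273 in the knockout and 0.503 and 0.559 in the wild type. Its means, 0.26 ± 0.0194 and 0.531 ± 0.0396 (SD, n = 2 each), lay far apart against the spread within each group, although Asl itself overlapped. Arg1 over Asl was 8.87 and 6.8 in the knockout and 6.18 and 3.16 in the wild type. Cps1 over Nags was 7.56 and 5.51 in the knockout and 4.93 and 3.5 in the wild type. These 3 ratios separated the groups. The other 4 ratios computed along the cycle, Otc over Cps1, Ass1 over Otc, Slc25a15 over Arg1 and Otc over Slc25a15, overlapped. The like share over all pairs of genes was not computed, so these counts are not shown to be particular to the cycle. Of single tested genes, 21.9% lay above and 20.1% below the wild type in both knockout libraries. The ratios were chosen with the gene values known, and they stand as a description, since with 2 libraries a group the smallest p of a two-sided exact permutation test is 0.333.

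**Figure D3:**
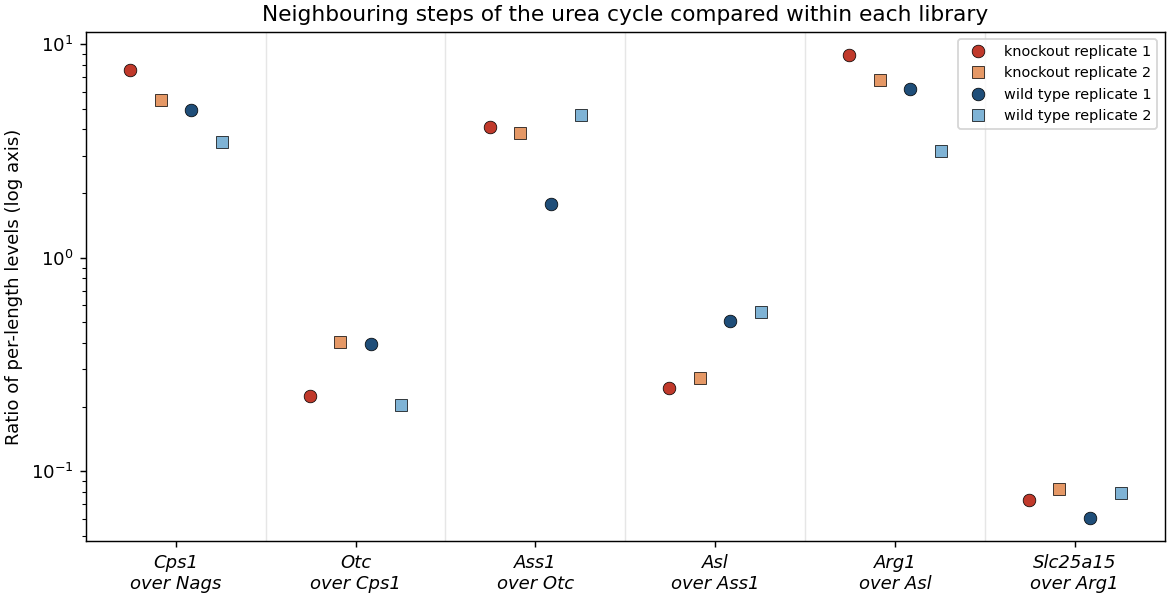
Ratio of counts per kilobase of exon between neighbouring genes of the urea cycle in each library, on a log axis, with knockout libraries left of wild type libraries. Asl over Ass1 is near 0.26 in both knockout libraries and near 0.53 in both wild type libraries, while Otc over Cps1 overlaps.

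By log2 fold change, the amino acid breakdown genes Sds and Hal held the widest differences of the 10 genes, and Gls2 did not. Sds, serine dehydratase (ENSMUSG00000029597, chromosome 5, 120476526 to 120483932), had 239 and 138 CPM in the knockout, from 3877 and 2187 counts. In the wild type it had 1.74 and 34.6 CPM, from 32 and 532 counts. Both knockout libraries lay above both wild type libraries, and the wild type libraries differed from each other by 19.8-fold. The group means, 189 ± 71.6 CPM in the knockout and 18.2 ± 23.2 CPM in the wild type (SD, n = 2 each), differed by 10.4-fold. On the log2 scale the fold change of Sds was 3.38, with an SE of 1.14 and an interval of 0.68 to 6.08 (edgeR adjusted p = 0.548), and 38 of the 16310 tested genes, Sds included, had one at least as large.

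Sds was not called with all 4 libraries, and it was called when either wild type library was left out. With wild type replicate 1 left out, the log2 fold change of Sds was 2.41 (edgeR adjusted p = 0.0308), in a fit that called 2.38% of genes. Without wild type replicate 2 it was 6.75 (edgeR adjusted p = 6.37e-03), in a fit that called 0.394% of genes. In each of these fits Sds was the only 1 of the 10 genes called, and the lone wild type library was assumed to vary like the knockout libraries. The other library exclusions gave 2.89 and 3.72, and neither was called.

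On the opposite strand, 2 genes overlap exons of Sds. Whether counting used strand is not stated in the labels or headers, so reads of overlapping genes cannot be told apart. The antisense gene Gm15690 shares 141 exon bases with Sds and had 71 and 43 counts in the knockout and 1 and 2 in the wild type, or 1.83% and 1.97% of the Sds count in the knockout and 3.12% and 0.376% in the wild type. Plbd2 shares 360 exon bases and had 1300 and 1439 counts in the knockout and 1083 and 2278 in the wild type. The groups overlapped for Plbd2. Both neighbours were looked up after the values of Sds were seen. Antisense Gm11586 overlaps Nags and Spryd4 overlaps Gls2 in the same way.

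Sdsl, the related serine dehydratase-like gene that lies next to Sds (chromosome 5, 120458186 to 120472810), had 32 and 29.2 CPM in the knockout and 8.77 and 29.8 CPM in the wild type. Its groups overlapped, with wild type replicate 1 alone at a low level (log2 fold change 0.67, SE 0.55, edgeR adjusted p = 0.747). With that library left out, the value for Sdsl was 0.00. Per kilobase of exon, Sds exceeded Sdsl 6.61-fold and 4.17-fold in the knockout. In the wild type the ratio was 0.176 and 1.03.

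Hal, histidine ammonia-lyase (ENSMUSG00000020017, chromosome 10, 93488768 to 93519304), had the lowest deposited FPKM of the 10 genes in 3 of the 4 libraries, Sds being lower in wild type replicate 1. It had 676 and 471 counts in the knockout and 141 and 283 in the wild type, or 41.7 and 29.7 CPM against 7.68 and 18.4 CPM. Both knockout libraries lay above both wild type libraries, with a log2 fold change of 1.46 (SE 0.48, interval 0.32 to 2.59, edgeR adjusted p = 0.547). Leaving out wild type replicate 1 gave 0.92, and leaving out wild type replicate 2 gave 2.22.

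The later steps of histidine breakdown were set beside Hal. Uroc1, urocanase, had 291 and 306 CPM in the knockout and 195 and 206 CPM in the wild type (log2 fold change 0.57, SE 0.31). Amdhd1, the imidazolonepropionase gene that neighbours Hal on chromosome 10 (93523338 to 93540033), had 79.9 and 60.9 CPM in the knockout and 48.1 and 70.4 CPM in the wild type (0.25, SE 0.33). Ftcd, the formiminotransferase that ends the pathway, had 339 and 224 CPM in the knockout and 60.1 and 147 CPM in the wild type (1.44, SE 0.49). Leaving out wild type replicate 1 gave 0.90 for Ftcd, and leaving out wild type replicate 2 gave 2.23. Uroc1 and Ftcd separated the groups and Amdhd1 did not, and the edgeR adjusted p values were 0.641, 0.548 and 0.847 for Uroc1, Ftcd and Amdhd1.

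Gls2, the liver-type glutaminase (ENSMUSG00000044005, chromosome 10, 128194457 to 128210004), had 129 and 107 CPM in the knockout and 85 and 90.5 CPM in the wild type. The groups did not overlap, with a log2 fold change of 0.42 (SE 0.29, edgeR adjusted p = 0.694). Leaving out each library in turn gave between 0.25 and 0.55 for Gls2.

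Levels were compared between genes only per length. By deposited FPKM, Arg1 was the highest of the 10 genes in all 4 libraries, with 363 and 290 in the knockout and 250 and 191 in the wild type. Cps1 (213 and 117 in the knockout, 134 and 133 in the wild type) and Ass1 (160 and 150 in the knockout, 77.3 and 104 in the wild type) came next, and their order changed in knockout replicate 2. Otc and Asl lay between 26.4 and 51.7 FPKM, and Nags, Slc25a15 and Gls2 lay between 10.6 and 24.6 FPKM. Sds was the 4th of the 10 in both knockout libraries, but the 10th in wild type replicate 1 and the 7th in wild type replicate 2. The length behind FPKM equalled the sum of all distinct annotated exons within 1% for 97.8% of 14357 genes, so overlapping exons were counted more than once. For Gls2 it was 2.21 times the union of exons. On the union length the 4-library mean of Gls2 was 29.6 FPKM, above Nags at 28.7 and Slc25a15 at 23.8, and Ass1 (150) and Cps1 (149) were level.

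Related gene lists were set beside the 10 genes, and no gene of any of them was called by edgeR. Of 22 tested genes that supply or carry substrates of the cycle, 13 stood higher and 9 lower by log2 fold change (median 0.11, and -0.15 without wild type replicate 1), and 4 lay above and 4 below the wild type in both knockout libraries. Gpt2, the alanine aminotransferase of mitochondria, had 990 and 633 CPM in the knockout and 484 and 533 CPM in the wild type (log2 fold change 0.67, SE 0.41). The cytosolic alanine aminotransferase gene Gpt, named after its values were seen, went the other way. It had 133 and 165 CPM in the knockout and 200 and 316 CPM in the wild type (-0.79, SE 0.36). Glud1, the glutamate dehydrogenase that frees ammonia in mitochondria, had 979 and 955 CPM in the knockout and 387 and 1030 CPM in the wild type. Got2, which makes aspartate, had 698 and 519 CPM in the knockout and 389 and 745 CPM in the wild type. For both, wild type replicate 1 was lowest and wild type replicate 2 highest. Car5a, the mitochondrial carbonic anhydrase that gives bicarbonate to CPS1, had 7.77 and 8.2 CPM in the knockout and 3.81 and 4.22 CPM in the wild type (log2 fold change 0.99, SE 0.42, edgeR adjusted p = 0.601). Slc25a13, the aspartate carrier citrin, overlapped between the groups, with 121 and 90.8 CPM in the knockout and 84.9 and 157 CPM in the wild type. The amino acid carrier gene Slc38a5, chosen after its values were seen as the lowest point of the list, had 0.37 and 0.315 CPM in the knockout and 1.36 and 11.2 CPM in the wild type. Cad, the cytosolic enzyme that makes carbamoyl phosphate for pyrimidines, had 107 and 84.3 CPM in the knockout and 97.6 and 92.1 CPM in the wild type.

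Genes of other amino acid breakdown pathways were set beside Gls2, Hal and Sds, and the difference between the sets was not tested. Over 65 tested genes of 7 other breakdown lists, 30 stood higher and 35 lower by log2 fold change (median -0.02, with Ftcd the highest), with 11 above and 11 below the wild type in both knockout libraries. The 3 histidine genes had a median of 0.57. The medians were -0.12 for 13 genes of serine, glycine and threonine, 0.03 for 8 of phenylalanine and tyrosine, -0.01 for 8 of tryptophan, 0.18 for 6 of proline and lysine, -0.11 for 17 of branched-chain amino acids and -0.06 for 10 of methionine and cysteine. Gldc, of the glycine cleavage system, had 371 and 249 CPM in the knockout and 184 and 177 CPM in the wild type (log2 fold change 0.78, SE 0.35). Bhmt, which remethylates homocysteine, had 1438 and 1454 CPM in the knockout and 1019 and 948 CPM in the wild type (0.56, SE 0.41). Kyat3, a kynurenine aminotransferase gene, went the other way with 144 and 124 CPM in the knockout and 336 and 220 CPM in the wild type (-1.05, SE 0.35, edgeR adjusted p = 0.547). Among 5 genes of asparagine and aspartate the asparaginase gene Aspg was higher, with 186 and 196 CPM in the knockout and 136 and 108 CPM in the wild type (0.65, SE 0.31), and the other 4 lay lower in both knockout libraries.

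**Figure D4:**
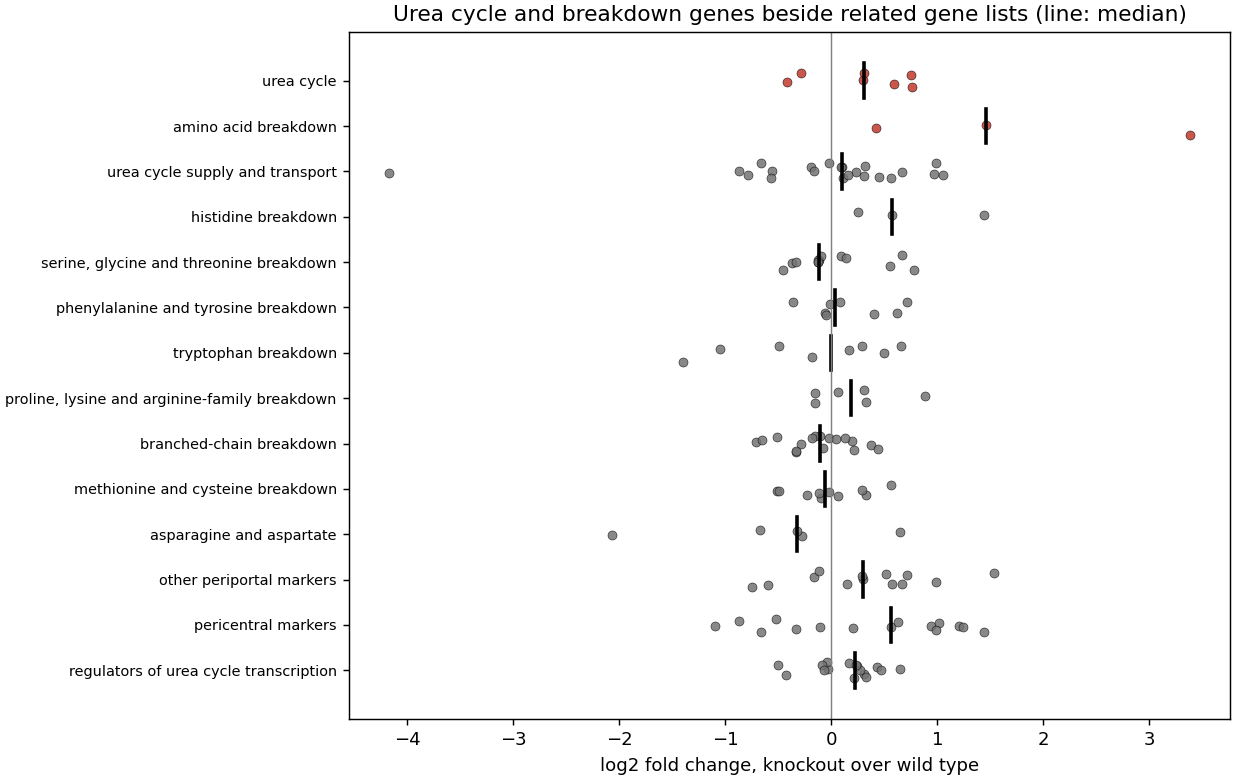
Log2 fold change, knockout over wild type, of each tested gene in the urea cycle and amino acid breakdown groups (red) and in 12 related lists (grey), with a vertical line at each list's median. The 3 breakdown genes have a median of 1.46, which is the value of Hal. The 7 urea cycle genes have a median of 0.31, while most other breakdown lists lie near 0.

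Of 13 other periportal markers, 9 had a positive log2 fold change, and 4 lay above and 2 below the wild type in both knockout libraries. Their median of 0.30 was 0.03 without wild type replicate 1 and 0.58 when wild type replicate 2 was left out. Cyp2f2, a cytochrome P450 of portal hepatocytes, was at 175 and 92.6 CPM in the knockout and 18.6 and 73.8 CPM in the wild type. Tat, Pck1 and G6pc are, like Sds, known to be induced by fasting hormones. Tat had 198 and 341 CPM in the knockout and 82.5 and 248 CPM in the wild type (log2 fold change 0.71, SE 0.56), and Pck1 had 83 and 415 CPM in the knockout and 12 and 238 CPM in the wild type. Both had their lowest level in wild type replicate 1, as Sds did, and their highest in knockout replicate 2, and the groups overlapped. G6pc, the glucose-6-phosphatase gene, had 79.8 and 146 CPM in the knockout and 78.2 and 63.9 CPM in the wild type, so both knockout libraries lay higher. The 2 markers below the wild type in both knockout libraries were Fbp1 and Ctsc. Fbp1, a gluconeogenesis gene like Pck1 and G6pc, had 299 and 157 CPM in the knockout and 303 and 463 CPM in the wild type (log2 fold change -0.75, SE 0.44). Ctsc had 64 and 48.6 CPM in the knockout and 90.6 and 79.9 CPM in the wild type (-0.60, SE 0.30).

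The pericentral genes Cyp2e1 and Cyp1a2 were low in replicate 1 of each group. Cyp2e1, the ethanol-metabolising P450, had 34.2 and 653 CPM in the knockout and 2.51 and 355 CPM in the wild type, and Cyp1a2 had 8.7 and 90.6 CPM in the knockout and 0.436 and 63.9 CPM in the wild type. Glul was lower in replicate 1 of each group as well. It had 82.8 and 197 CPM in the knockout and 172 and 269 CPM in the wild type (log2 fold change -0.66, SE 0.48, edgeR adjusted p = 0.712). Of 15 tested pericentral markers 9 had a positive log2 fold change, and the median of 0.56 was -1.45 without knockout replicate 2 and -0.14 without wild type replicate 1. Per kilobase of exon, Cps1 exceeded Glul by 8.39-fold and 2.05-fold in the knockout and by 2.32-fold and 1.83-fold in the wild type. The pericentral markers Rhbg, Tbx3 and Znrf3 were higher in replicate 1 than in replicate 2 of the wild type. Cyp2f2, Pck1, G6pc, Fbp1, Ctsc, Cyp1a2, Rhbg, Tbx3 and Znrf3 were chosen after their values were seen.

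**Figure D5:**
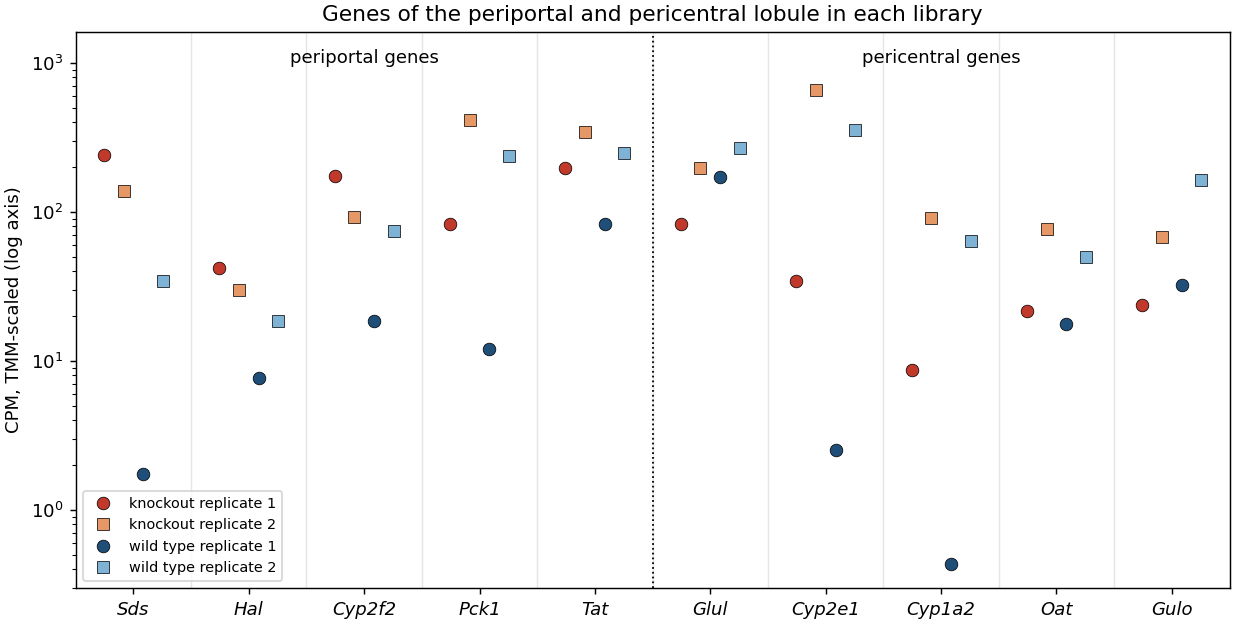
Level of 5 periportal and 5 pericentral genes in each library, in CPM on a log axis, with knockout libraries left of wild type libraries. Sds, Hal and Cyp2f2 are lowest in the wild type libraries. Pck1, Tat and all 5 plotted pericentral genes (Glul, Cyp2e1, Cyp1a2, Oat and Gulo) are lower in replicate 1 than in replicate 2 of each group. Of the markers not plotted, Rhbg, Tbx3 and Znrf3 are higher in wild type replicate 1 than in wild type replicate 2.

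Of 16 regulators of urea cycle transcription 10 had a positive log2 fold change (median 0.22), with 4 above and 1 below the wild type in both knockout libraries. Cebpa had 277 and 344 CPM in the knockout and 291 and 348 CPM in the wild type, and Hnf4a had 549 and 471 CPM in the knockout and 530 and 553 CPM in the wild type. Ppargc1a, a coactivator of the fasting response, had 11.3 and 11.9 CPM in the knockout and 9.15 and 10.9 CPM in the wild type. Myc as counted had 86.4 and 53.7 CPM in the knockout and 79.5 and 59.9 CPM in the wild type.

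RNA levels of hepatocyte markers and of markers of other cell types differed between the libraries. Relative to the mean log2 CPM of the 10 hepatocyte markers, Ass1, Slc25a15, Hal and Sds lay higher in both knockout libraries, or 4 of the 10 genes against 6.29% of all tested genes. Asl and Nags lay lower in both, or 2 of the 10 against 22.2% of all tested genes. On that scale the Sds values were -2.89 and -3.75 in the knockout and -9.31 and -6.03 in the wild type, and the Hal values -5.41 and -5.97 in the knockout and -7.17 and -6.94 in the wild type. The groups overlapped for Cps1, Otc, Arg1 and Gls2. This scaling was chosen after the data were seen.

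All 9 macrophage markers had a negative log2 fold change, with a summed level of 393 and 260 CPM in the knockout and 704 and 1043 CPM in the wild type, and the Kupffer cell marker Clec4f was at 0.802 and 9.02 CPM in the knockout and 0 and 59.6 CPM in the wild type. All 5 tested erythroid markers were also negative (212 and 150 CPM in the knockout, 956 and 2172 CPM in the wild type). Endothelial markers summed to 98.2 and 76.1 CPM in the knockout and 135 and 145 CPM in the wild type. Stellate and fibroblast markers summed to 616 and 1085 CPM in the knockout and 1387 and 1150 CPM in the wild type. Macrophages can also express Arg1, and their part in its level was not tested. Bile duct markers summed to 1097 and 1155 CPM in the knockout and 434 and 994 CPM in the wild type, mostly from Spp1, and of the 6 tested 3 stood higher and 3 lower by log2 fold change. Leukocyte markers summed to 44.9 and 44.3 CPM in the knockout and 69.4 and 51.7 CPM in the wild type. Of the 6 tested, 3 stood higher and 3 lower by log2 fold change, and Ptprc was at 54.6 CPM in wild type replicate 1 and 4.22 CPM in wild type replicate 2. Kidney tubule markers, of a tissue that also expresses Ass1 and Asl, summed to at most 0.555 CPM. Of 5 enterocyte markers Sis was at 0 in all 4 libraries, and Fabp2 gave most of the summed 67.6 and 78.1 CPM in the knockout and 69.6 and 127 CPM in the wild type. Pancreas markers summed to 6.66 and 13.9 CPM in the knockout and 19.5 and 46.7 CPM in the wild type, mostly from Cela1, with Prss2 at 0 in all 4 libraries. Mitochondrial genes took 9.8% and 16.6% of counts in the knockout and 8.69% and 4.13% in the wild type. The part of cell content and mitochondrial share in the differences was not tested beyond the values given here.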

How the data were processed

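Poly(A) RNA libraries of 4 mouse liver tumours were analysed. Per the submitters' processing notes the tools were StringTie, edgeR, HISAT2 and SAMtools 1.3.1, with build mm10. The notes used here give no roles. The authors deposited raw counts and FPKM per Ensembl gene in 1 table. The deposited FPKM values implied 1 length per gene across libraries, within 1%, for 100% of 14371 genes (10 or more counts in each library), and were used only to compare genes within a library. Spans equalled GENCODE M21 for 99.35% of the 55141 matched identifiers.

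Counts were filtered by edgeR's filterByExpr (16310 genes left), scaled by TMM to CPM and tested with edgeR 4.0.16 (R 4.3.3), quasi-likelihood F test, two-sided, adjusted over all genes by Benjamini-Hochberg at 0.05. Standard errors were derived from the F statistic. DESeq2 1.42.0 and limma-voom (limma 3.58.1), other scalings and filters, a replicate block, removal of mitochondrial genes and leaving out each library were alternatives. The test was tested on simulated data. Lists were described by counts and medians, with no set test.

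The 10 genes and the lists were chosen with earlier results of these data known. Named genes are the 10 genes, 20 fixed genes, and up to 3 of the most abundant genes of a list. Overlapping genes and single cell type markers were named after their values were seen. Some named genes are not reported here. Of the list symbols, Tf and Mmut matched no row. Promoters came from RefSeq, which held 5 of the 10 genes. A count of 3 in a library is 0.176 to 0.188 CPM. Such limits cover counting error only. With 2 mice a group, p-values rest largely on spread pooled over genes.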

Additional observations from a re-analysis of the deposited data

How the results depend on the processing

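Of 120 values of the 10 genes under the 12 alternatives, 117 kept their direction. The 3 exceptions came from leaving out a library: Cps1 ranged between -0.17 and 0.64, Asl between -0.70 and 0.22 and Nags between -0.80 and 0.03. Tfrc ranged between -0.79 and 0.16 and Amdhd1 between -0.04 and 0.55 in the same way. The other 7 genes kept a positive sign under all 12 alternatives. The number of the 10 genes called was 0 under every alternative that kept all libraries, and 0 to 1 (Sds) when a library was left out. Over all genes, DESeq2 called 63 higher and 85 lower, limma-voom and library totals each called 1 lower, and the replicate block called 2 higher and 2 lower. Leaving out a library gave 0 to 209 higher and 0 to 200 lower. The cause was not tested. Replicate numbers are shared between the groups without a stated meaning. Same-numbered libraries deviated from their group means with a correlation of 0.121 over genes, and under the replicate block Sds was at 4.40 and Hal at 1.56, neither called. Among the 10 genes the lowest count is 32, of Sds in wild type replicate 1, and levels of genes with fewer counts, such as Gm15690 and Arg2, are imprecise.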
